A study of Homo sapiens with 2 samples.

Results

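The genes described here are those of human chromosome 16 in BEAS-2B, an immortalised line of bronchial epithelial cells, with and without overexpression of the ion channel TRPV3. A gene was included when its first listed chromosome was 16 and its raw counts summed over both libraries reached 20. This gave 626 of the 2511 genes annotated on the chromosome in the files, beside 13931 genes of the whole series that reached the same sum. A further 425 chromosome 16 genes had 1 to 19 counts and are not described. The members were selected on their counts, and the chromosome was picked with earlier results of these libraries known, so its low ratios are given as a description. At the limit, ABAT (14 parental and 6 TRPV3-OE counts), SHISA9 (20 and 0) and SEPTIN1 (13 and 7) were just inside, and CHD9NB (7 and 12), MT1A (9 and 10) and MMP25 (12 and 6) were just outside.

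The study compared 1 library of BEAS-2B cells of genotype WT, at a passage between 20 and 30, with 1 library of TRPV3-OE cells, at a passage between 4 and 8. Both were cultured in LHC-9 on a coat of fibronectin and collagen and were snap frozen once confluent, and the labels name no added agent. Neither the vector nor the number of clones behind the TRPV3-OE cells is given there. With 1 library a group there is no replicate error and no test of any difference. Every interval below is a 95% interval for counting error alone, and passage cannot be told apart from the overexpression. The libraries held 17450658 and 17477953 counts, so 1 count was worth 0.0584 and 0.0562 CPM (the count scaled to a library of fixed size). TRPV3 had 26 and 54077 counts, and all 10 epithelial markers examined had at least 100 counts. Of the markers of other cells, 1 of 7 fibroblast, 1 of 7 immune and 1 of 5 endothelial genes reached 100 counts, while PTPRC, CD3E, LYZ, COL3A1, LUM, KDR and CLDN5 had 0 in both libraries. In bulk RNA, fewer cells expressing a gene and less RNA per cell cannot be told apart.

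Chromosome 16 is a gene-rich chromosome. Its long arm holds the metallothionein cluster and the pair CDH1 and CDH3, and its short arm holds the alpha-globin genes near the end and many recent duplications. Neighbouring genes share their DNA copy number and often a chromatin domain, which is why ratios are commonly read in gene order. DNA copy number was not measured in these libraries. A gene that lies well off its neighbours is one whose ratio its surroundings do not describe. The log2 ratio used throughout is TRPV3-OE over parental after scaling, so a value of −1 is a 2-fold lower level in the TRPV3-OE library.

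The upstream stretches of 4 genes are shown because these genes stood above their neighbours and the stretches hold letters of a motif searched for. Those of VASN, PLLP and CHST6 hold CAGGTG, an E-box form bound by the repressors ZEB1 and SNAI1, on 1 of their strands, and that of MT1X, a metallothionein, holds TGCACNC or TGCGCNC, the core of the metal response element bound by MTF1. They are RefSeq sequences on GRCh38.p14 from 250 bases before the start, cut before the first base of any annotated exon, 5′ to 3′ on the strand of the gene, with matches on either strand in capitals. MT1X is at chr16:56682220-56682423 (plus strand), VASN at chr16:4371598-4371847 (plus), PLLP at chr16:57284688-57284922 (minus) and CHST6 at chr16:75495446-75495691 (minus).
MT1X: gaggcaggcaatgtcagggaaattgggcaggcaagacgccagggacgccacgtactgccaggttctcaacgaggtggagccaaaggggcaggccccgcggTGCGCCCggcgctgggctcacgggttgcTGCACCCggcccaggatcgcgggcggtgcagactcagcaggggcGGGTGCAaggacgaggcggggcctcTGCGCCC
VASN: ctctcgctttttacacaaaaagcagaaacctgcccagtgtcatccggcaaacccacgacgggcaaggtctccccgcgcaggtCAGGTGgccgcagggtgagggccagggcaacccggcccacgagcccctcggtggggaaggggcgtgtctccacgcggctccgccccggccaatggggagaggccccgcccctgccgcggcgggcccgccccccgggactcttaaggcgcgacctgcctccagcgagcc
PLLP: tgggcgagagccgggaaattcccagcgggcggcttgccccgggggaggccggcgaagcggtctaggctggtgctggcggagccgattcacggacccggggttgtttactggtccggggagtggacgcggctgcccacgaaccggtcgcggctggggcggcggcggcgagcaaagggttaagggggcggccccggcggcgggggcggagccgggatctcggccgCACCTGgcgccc
CHST6: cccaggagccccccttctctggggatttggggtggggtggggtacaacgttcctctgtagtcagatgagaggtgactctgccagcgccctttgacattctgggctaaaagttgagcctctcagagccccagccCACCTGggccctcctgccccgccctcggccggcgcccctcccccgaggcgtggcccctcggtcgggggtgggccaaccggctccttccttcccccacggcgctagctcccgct

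The MT1X stretch held 4 matches of the metal response element. Over all 27195 RefSeq promoter windows of 250 bases, 24.8% held at least 1 such match and 1.57% held at least 3. Of the 452 members with a window, 37.6% held at least 1 and 2.88% at least 3. At least 1 was held by 5 of 24 windows of genes above their neighbours (20.8%), by 7 of 17 of genes below (41.2%) and by 38.4% of the 411 near their neighbours, so MT1X stands in the group with the lowest share. The E-box letters were in 17.5% of all windows, in 16.1% of the 411 windows of members near their neighbours, in 7 of 24 windows of genes above their neighbours (29.2%) and in 4 of 17 of genes below (23.5%). A match is a description of letters and not a site of binding.

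Along the chromosome the TRPV3-OE library was lower for most genes. The median log2 ratio over the 626 members was −0.32, beside −0.01 over all genes of the series, and 471 members (75.2%) lay below 0 where 51.2% of all genes did. Among 23 chromosomes this median was the second lowest, after that of chromosome 4 (−0.44). The short arm, with 341 members, had a median of −0.44 (quartiles −0.72 and −0.11). The long arm, with 285 members, had a median of −0.22 (quartiles −0.47 and 0.08). Short-arm genes took 1.92% of all counts in the parental library (exact binomial interval 1.92 to 1.93) and 1.46% (1.45 to 1.46) in the TRPV3-OE library, and long-arm genes 2.35% (2.34 to 2.36) and 1.98% (1.98 to 1.99).

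The difference between the arms, −0.23 in medians, lay in the outer part of the short arm. A limit at 15 Mb, set after the values had been seen, divided the arm into 179 outer genes with a median of −0.59 and 162 inner genes with a median of −0.22, the same as the long arm to 2 decimals. Below 15 Mb, 159 of 179 genes (88.8%) had a ratio below 0, against 67.3% of the inner short arm and 71.2% of the long arm. In windows of 5 Mb the medians from the short-arm end were −0.59 (143 genes), −0.66 (11 genes), −0.52 (25 genes), −0.40 (26 genes), −0.20 (32 genes), −0.18 (47 genes) and −0.31 (57 genes). On the long arm the windows with at least 20 genes lay between −0.30 and −0.21. Its smaller windows spread more widely, with −0.36 (12 genes), −0.15 (18 genes), −0.50 (1 gene), 0.03 (18 genes) and 0.42 (2 genes). The first window of the short arm ranked 19th from the lowest among 258 windows of the series with at least 20 genes. The lowest of these, on chromosome 6, had −0.91.

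**Figure D1:**
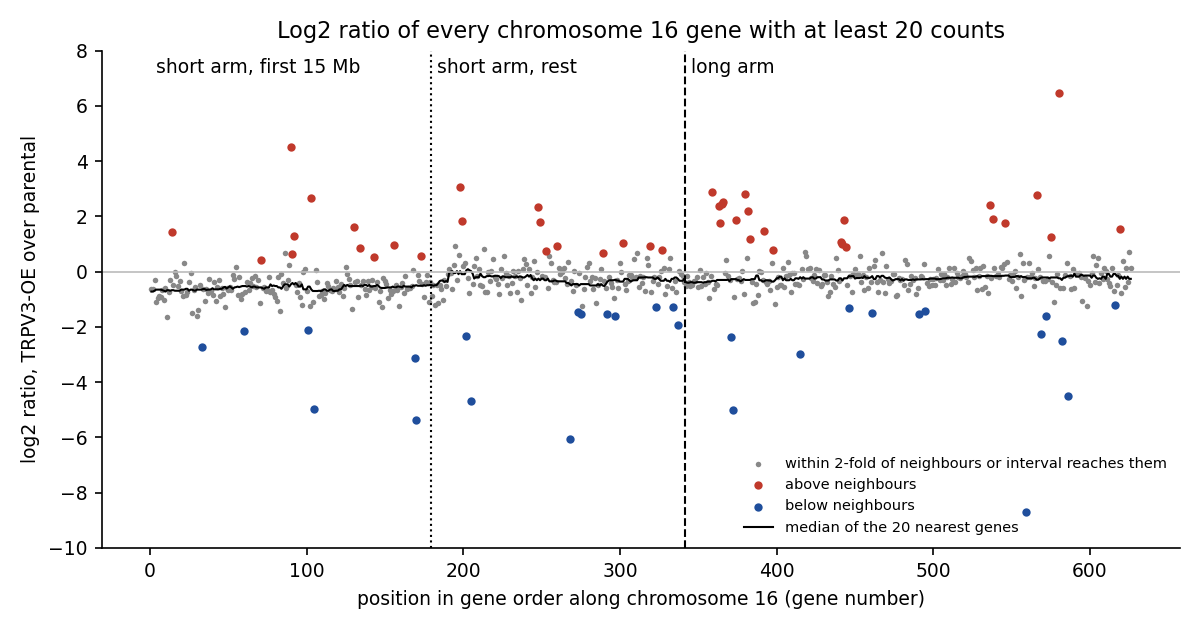
Log2 ratio of TRPV3-OE over parental (y) for each of the 626 genes in order along chromosome 16 (x), with the median of the 20 nearest genes as a line and departing genes in colour. The line runs near −0.6 at the short-arm end and comes up to about 0 soon after the dotted line at 15 Mb. It falls again farther along the short arm, to −0.50 at CDIPT, and stays between −0.6 and about 0 on the long arm.

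The pattern was also present among strongly expressed genes. Among genes with at least 500 summed counts the outer short arm had a median of −0.61 (115 genes, 109 below 0), the inner short arm −0.27 (86 genes) and the long arm −0.25 (188 genes). The ratio of summed counts was −0.57 for the outer and −0.36 for the inner short arm. The strands were close, with medians of −0.42 for 178 plus-strand and −0.45 for 163 minus-strand genes of the short arm. Protein-coding genes of the short arm had −0.49 (295 genes) and the other biotypes −0.07 (46 genes, with a median of 47 summed counts).

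**Figure D2:**
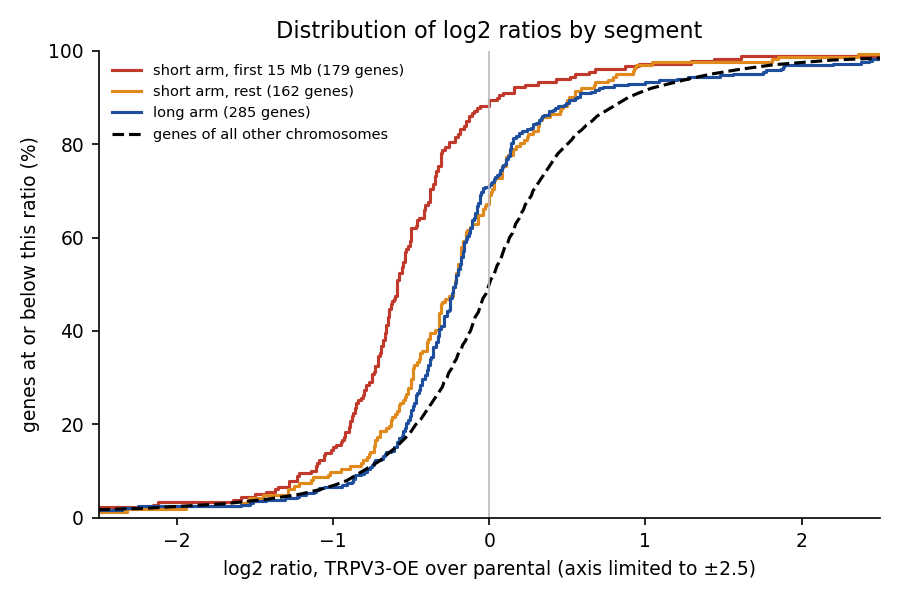
Percentage of genes (y) at or below each log2 ratio of TRPV3-OE over parental (x) for 3 segments of chromosome 16 and for the genes of the other chromosomes. The curve of the first 15 Mb of the short arm lies left of all the others through its middle, and the inner short arm and long arm run close to each other between them and the other chromosomes.

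The low level of the outer short arm was shared by genes of unrelated roles. At its very end POLR3K, an RNA polymerase III subunit gene, had 532 and 356 counts (−0.64, −0.83 to −0.44), and SNRNP25, a minor spliceosome gene, 986 and 661 (−0.63, −0.78 to −0.49). The DNA glycosylase gene MPG had 468 and 228 counts (−1.09, −1.33 to −0.86). NPRL3, an inhibitor of mTORC1 in amino acid sensing, had 1117 and 602 (−0.95, −1.09 to −0.80), and RHBDF1, an inactive rhomboid protease, 344 and 288 (−0.31, −0.54 to −0.08). All 5 intervals lay below 0. Farther in, the mTOR subunit gene MLST8 had 930 and 439 counts (−1.14, −1.31 to −0.97). The mTOR stabiliser gene TELO2 had 1384 and 692 (−1.06, −1.19 to −0.92), and the cohesion factor gene CHTF18 2003 and 1009 (−1.05, −1.16 to −0.94). Each of these was lower by at least 2-fold, yet within 2-fold of its local median.

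The short-arm members with the most counts that are named here were lower as well. ALDOA, the muscle-type glycolytic aldolase also made by most cells, had 31114 and 23019 counts (−0.49, −0.52 to −0.47). The splicing scaffold gene SRRM2 had 13177 and 9112 (−0.59), the mitochondrial elongation factor gene TUFM 6742 and 5373 (−0.38) and the ribosomal protein gene RPS2 6151 and 5608 (−0.19, −0.24 to −0.14). TUFM and RPS2 have near-identical copies elsewhere, and reads that map to several places were not counted. On the long arm the most counted genes went different ways. SLC7A5, the large neutral amino acid transporter, had 72232 and 49299 counts (−0.61, −0.62 to −0.59), whereas RPL13, a ribosomal protein gene, had 11759 and 12456 (0.03, −0.01 to 0.06).

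Few genes of the outer short arm lay at or above 0. Of 148 genes there with at least 100 counts, 136 lay below 0, and the other 12 were PIGQ, MSRB1, BRICD5, PRSS21, PRSS22, BICDL2, ZNF213-AS1, GLIS2, VASN, PPL, EMP2 and SNX29. PIGQ, a subunit of the enzyme that begins GPI anchor synthesis, had 829 and 862 counts (0.00, −0.14 to 0.14). The interval also held 0 for MSRB1, a selenoprotein that repairs oxidised methionine (126 and 146 counts), for the zinc finger factor GLIS2 (394 and 459), for the antisense RNA gene ZNF213-AS1 (50 and 54) and for SNX29 (134 and 145). The intervals of PRSS21, PRSS22, BICDL2, BRICD5, VASN, PPL and EMP2 lay above 0. PPL, the plakin periplakin of the cornified envelope and desmosomes, had 1717 and 2558 counts (0.52, 0.43 to 0.61). EMP2, a tetraspan membrane protein of epithelia, had 1115 and 2248 (0.96, 0.85 to 1.06).

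Against 0, 30 members (4.79%) were at least 2-fold higher with an interval wholly above 0, where 7.85% of all genes were, and 57 (9.11%) were at least 2-fold lower, where 6.76% of all genes were. Of the 30 higher genes 10 lay on the short arm (2.93% of its 341 members) and 20 on the long arm (7.02% of 285). Of the 57 lower genes 40 lay on the short arm (11.7%) and 17 on the long arm (5.96%). Against the median of the 20 nearest genes with at least 100 counts, leaving out overlapping genes, the picture evened out. A member was called departing when it lay at least 2-fold off this local median with its interval wholly on that side. Above their neighbours were 43 members (6.87%, beside 7.63% of all genes), 21 on the short arm and 22 on the long. Below were 29 members (4.63%, beside 5.23%), 16 and 13. These shares were a little under those of the series. Of the 57 lower genes, 28 were not below their neighbours, and 24 of these lay on the short arm. Conversely, 13 genes stood above their neighbours without being 2-fold higher, 11 of them on the short arm, EMP2 and PPL among them. By the rules of the calls both groups can arise only where the local median is below 0. Their shares over all genes were not counted. The local median itself ranged from −0.72 at POLR3K to 0.09 at KNOP1 and was negative for 618 members.

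**Figure D3:**
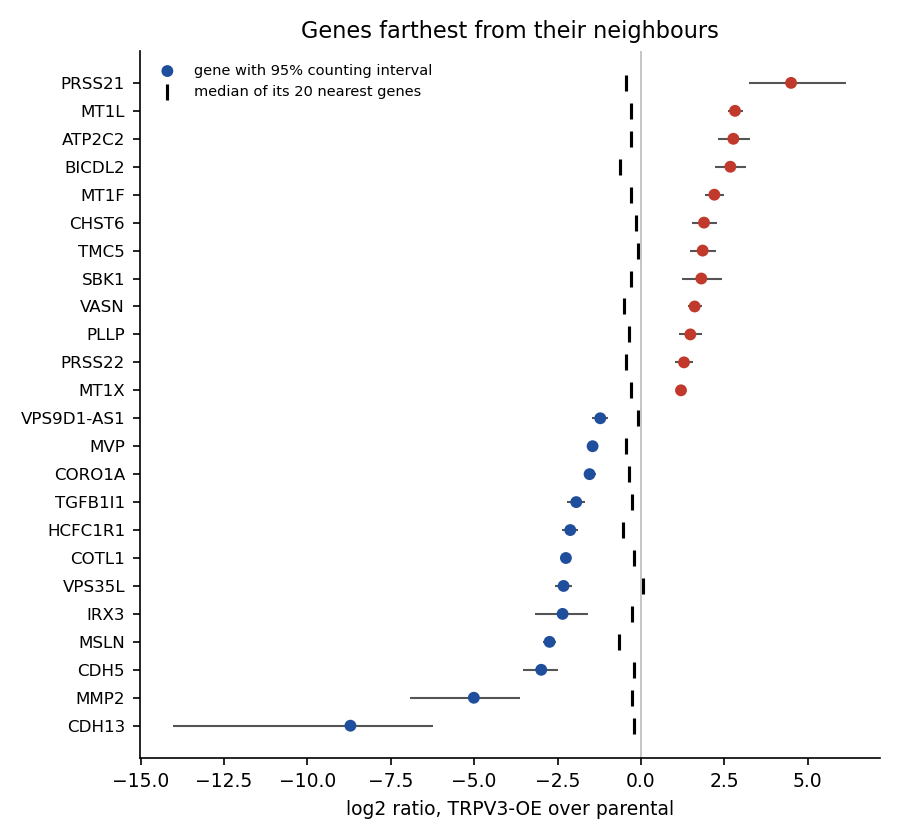
The 24 departing genes with at least 100 counts whose intervals lie farthest from the local median, 12 above and 12 below (y). Each has the log2 ratio of TRPV3-OE over parental (x), its 95% counting interval as a line, and the median of the 20 nearest genes as a black tick. The ticks run from −0.65 for MSLN to 0.05 for VPS35L, while the genes run from −8.71 for CDH13 to 4.50 for PRSS21.

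Of the 14 listed tight junction and epithelial protease genes 6 were members, of which 3 stood above their neighbours, where 7.63% of all genes did, and none below. The list median was 0.65, beside −0.32 for the chromosome. The 3 were serine protease genes. PRSS21 (testisin), at 2817180 to 2826304 on the plus strand of GRCh38, had 5 and 118 counts (4.50, 3.24 to 6.15), and PRSS22 (tryptase epsilon), at 2852727 to 2858170 on the minus strand, had 146 and 370 (1.29, 1.01 to 1.57). Between them lay ZG16B, a lectin gene of secretory epithelia, with 24 and 39 counts (0.64, −0.13 to 1.44) and still above its local median of −0.41. The call of ZG16B was lost with 5 counts added to each library. The neighbours were lower, with ELOB, a subunit of elongin, at 2677 and 2239 counts (−0.31) on one side. PRSS53, near 31 Mb, had 91 and 164 counts (0.79, 0.42 to 1.18) against a local median of −0.33. PRSS8 (prostasin), an activator of epithelial sodium channels, had 612 and 909 (0.51, 0.37 to 0.66) and was higher but within 2-fold of its neighbours. ESRP2, a splicing regulator of epithelial cells on the same list, went the other way with 1612 and 1303 counts (−0.36, −0.47 to −0.26).

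A short way farther in, adjacent genes parted in opposite directions. TNFRSF12A, the receptor of the cytokine TWEAK, had 3596 and 2286 counts (−0.71, −0.79 to −0.63), near its local median of −0.64. HCFC1R1, a regulator of host cell factor HCF-1, had 792 and 189 (−2.12, −2.36 to −1.89). THOC6, a subunit of the THO mRNA export complex whose start overlaps that of HCFC1R1 on the other strand, had 741 and 329 (−1.23, −1.42 to −1.04). BICDL2, a dynein adaptor-like gene whose end overlaps THOC6 on the other strand, had 46 and 306 (2.68, 2.23 to 3.16). BICDL2 and HCFC1R1 thus sat on either side of THOC6 with ratios of opposite sign. The cytokine gene IL32, a little farther on, had 30 counts and 1 (−4.96, −10.31 to −2.37).

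A similar contrast stood near 19.5 Mb, where the local median was close to 0. SYT17, of the synaptotagmin family, had 10 and 88 counts (3.08, 2.13 to 4.19), and TMC5, a transmembrane channel-like gene, 67 and 251 (1.85, 1.46 to 2.26). GDE1, a glycerophosphodiester phosphodiesterase, had 1938 and 2355 (0.22, 0.14 to 0.31), and CCP110, a centriole capping protein gene, 1063 and 1372 (0.31, 0.20 to 0.43). The next gene, VPS35L, a subunit of the retriever complex that recycles membrane proteins, had 762 and 159 counts (−2.32, −2.57 to −2.07) against a local median of 0.05. Its neighbours KNOP1, with 937 and 837 counts (−0.22), and IQCK, with 245 and 148 (−0.78, −1.09 to −0.48), were less low. GPRC5B, an orphan receptor gene, had 49 and 2 counts (−4.67, −7.76 to −2.74).

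**Figure D4:**
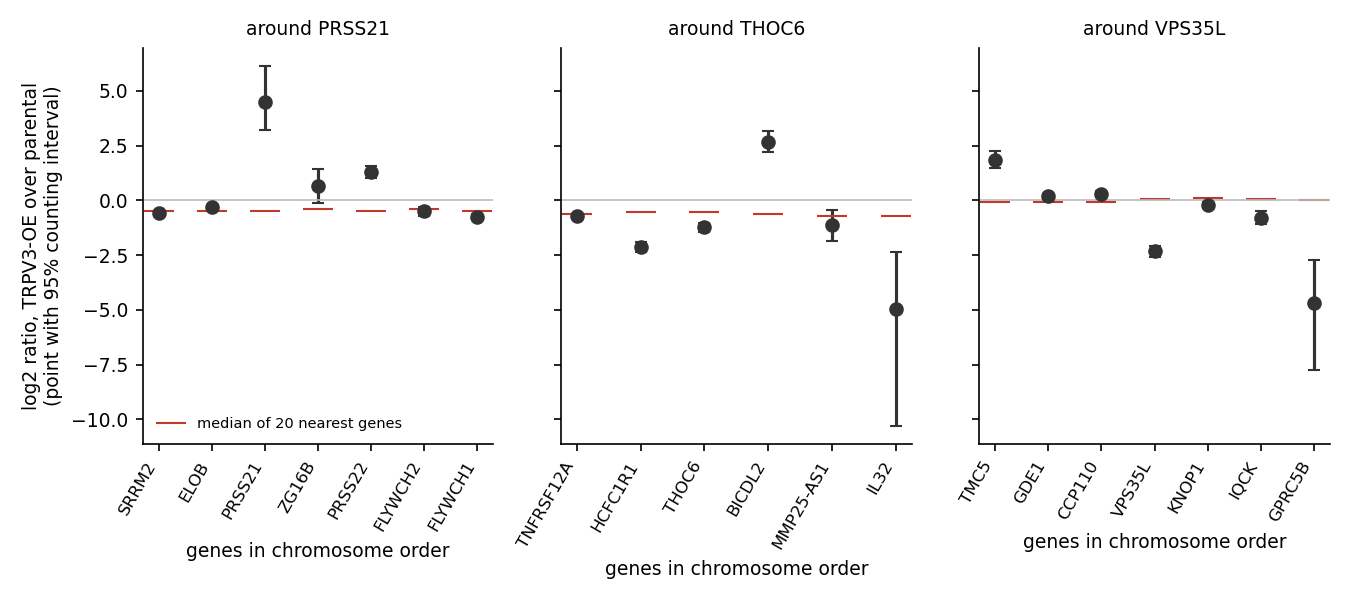
Log2 ratio of TRPV3-OE over parental with its 95% counting interval (y) for members in chromosome order (x) at 3 places on the short arm, with the median of the 20 nearest genes in red. PRSS21 and PRSS22 lie above neighbours below 0, BICDL2 at 2.68 follows HCFC1R1 at −2.12 and THOC6 at −1.23, and VPS35L at −2.32 follows CCP110 at 0.31.

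On the long arm the metallothionein cluster divided. Metallothioneins are small cysteine-rich proteins that bind zinc and copper. MT2A had 36830 and 21994 counts (−0.80, −0.82 to −0.78), below its local median of −0.27 by less than 2-fold. MT1E had 7315 and 10825 (0.51, 0.47 to 0.55), MT1F 123 and 586 (2.20, 1.91 to 2.49) and MT1X 2911 and 6933 (1.20, 1.13 to 1.26). MT1L, annotated as a transcribed pseudogene of the cluster, had 175 and 1289 (2.82, 2.60 to 3.06). So of the 5 genes of the cluster that reached the count limit 1 was lower and 4 were higher. Of the 11 listed metallothionein genes on the chromosome only 4 were members, MT1L not being on that list. NUP93, the nuclear pore gene that follows, had 2785 and 2259 counts (−0.36). Per kilobase of exon, MT2A had the highest level of the 5 in both libraries (1655.4 and 950.8 CPM per kb), followed by MT1E (406.0 and 577.8). These genes are near-identical in sequence and only uniquely placed reads were counted, so how reads divide among them is uncertain. The 250 bases before the RefSeq start of MT2A, which are annotated in GENCODE as part of a longer transcript's UTR and are not printed, held 7 matches of the metal response element, and the 204 bases shown for MT1X held 4.

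**Figure D5:**
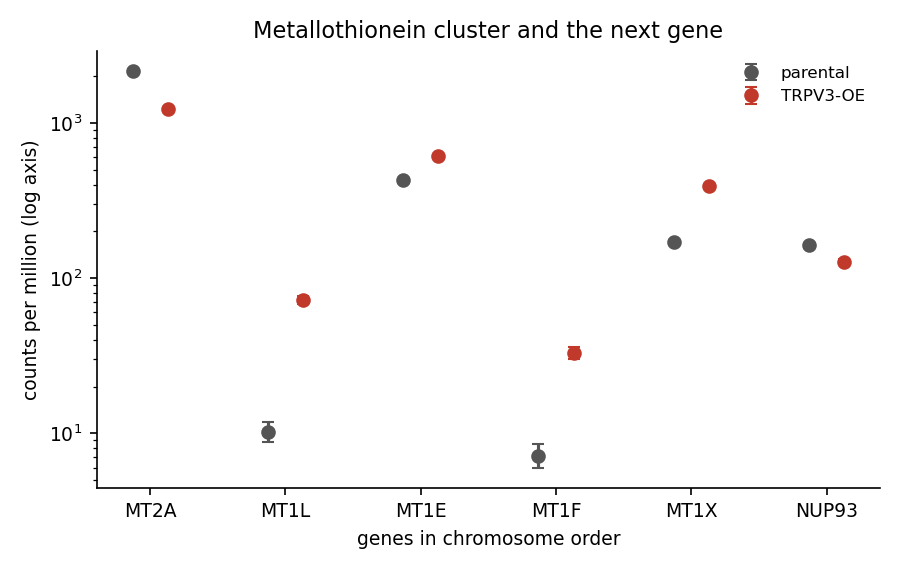
Level in CPM on a log axis (y) of the 5 metallothionein genes with at least 100 counts and of NUP93 in chromosome order (x), in the parental and the TRPV3-OE library, with exact Poisson 95% intervals (mostly smaller than the points). MT2A and NUP93 are lower in the TRPV3-OE library, and MT1L, MT1E, MT1F and MT1X are higher.

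CDH13 and MMP2 had the lowest ratios of the long arm. CDH13 (T-cadherin), a cadherin held by a GPI anchor, had 404 counts and 1 (−8.71, −14.02 to −6.23). Its neighbours on either side, MPHOSPH6 with 812 and 679 counts (−0.31) and HSBP1 with 2669 and 2410 (−0.20), were close to the arm. CDH5 (VE-cadherin), typical of endothelium, had 268 and 35 (−2.99, −3.55 to −2.48), and is 1 of 5 endothelial markers examined. Of the others PECAM1 had 14 and 23 counts, VWF 4 and 0, and KDR and CLDN5 none, and the 5 summed to 16.7 and 3.26 CPM with CDH5 included. Their part in the result was not tested. The epithelial cadherins CDH1 (8063 and 7875 counts, −0.09) and CDH3 (5649 and 5555, −0.08) were close to equal in the libraries. MMP2, a gelatinase, had 124 and 4 counts (−5.01, −6.91 to −3.62), and the homeobox gene IRX3, the departing gene before it, 88 and 18 (−2.35, −3.17 to −1.60). The forkhead gene FOXL1 had 66 and 12 (−2.52, −3.54 to −1.62). The membrane-bound protease MMP15 had 438 and 498 (0.13, −0.06 to 0.32).

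Among genes with at least 100 counts 17 lay below their neighbours (3.33%, beside 3.73% of all genes at that minimum). Of the 12 whose intervals lay farthest from the local median, those not yet named had various roles. COTL1, an actin-binding protein, had 5618 and 1227 counts (−2.25, −2.34 to −2.16), the lowest ratio of the long arm among genes with at least 500 counts. CORO1A, an actin regulator best known from leukocytes, had 968 and 346 (−1.54, −1.72 to −1.36). TGFB1I1 (Hic-5), a focal adhesion adaptor induced by TGF-beta, had 517 and 140 (−1.94, −2.22 to −1.67). MSLN (mesothelin), a surface protein of mesothelium and some epithelial tumours, had 1680 and 261 (−2.74, −2.94 to −2.55), the lowest on the short arm at that count. The vault protein gene MVP had 1664 and 632 (−1.45, −1.59 to −1.32), and the antisense RNA gene VPS9D1-AS1 476 and 213 (−1.22, −1.46 to −0.98). Set against their 10 nearest genes these last 2 departed by −0.89 and −0.95 and were no longer called.

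The immune and inflammatory genes, listed with earlier results of these data known, had a lower median than the chromosome. Of 35 listed, 17 were members, with a median of −0.71, where the whole chromosome had a median of −0.32. Their median departure from the local median was smaller, −0.28, beside 0.03 for the chromosome. Of the 17, 6 were at least 2-fold lower, where 6.76% of all genes were, and 1 was higher, where 7.85% were. Below their neighbours stood 5 of the 17, where 5.23% of all genes did, though MVP was not called against its 10 nearest genes. Besides IL32, CORO1A and MVP the genes below were PYCARD, the inflammasome adaptor ASC, with 186 and 79 counts (−1.29, −1.69 to −0.90; its departure of −1.03 was −0.98 against the 50 nearest genes, which ended the call), and PSMB10, an immunoproteasome subunit, with 123 and 45 (−1.51). NLRC5, an activator of MHC class I genes, had 229 and 110 (−1.11, −1.46 to −0.78). IL4R, the receptor of interleukins 4 and 13, had 1986 and 1219 (−0.76, −0.86 to −0.66). IRF8, an interferon regulatory factor of myeloid and lymphoid cells, was the exception with 1 count and 92 (6.47, 3.95 to 11.79), the highest ratio of the chromosome. The 7 immune markers summed to 4.32 CPM in parental cells and to 26 CPM with TRPV3-OE, nearly all of it from CD14 (72 and 460 counts), and their part in the result was not tested.

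Further genes above their neighbours had various roles. ATP2C2, the secretory-pathway calcium pump SPCA2, had 44 and 312 counts (2.77, 2.31 to 3.26). CHST6, a keratan sulphate sulphotransferase, had 74 and 286 (1.89, 1.52 to 2.28), and PLLP (plasmolipin) 96 and 279 (1.48, 1.14 to 1.83). GSE1, a subunit of a histone deacetylase complex, had 890 and 2226 (1.27, 1.15 to 1.38), and ADGRG1 (GPR56), an adhesion receptor, 2171 and 3934 (0.80, 0.73 to 0.88). On the short arm VASN (vasorin), which binds TGF-beta, had 250 and 792 (1.61, 1.40 to 1.82). SBK1, a kinase gene, had 31 and 113 counts (1.81, 1.23 to 2.43), and the long noncoding RNA ENSG00000246465, which begins on the opposite strand just before it, 9 and 48 (2.36, 1.32 to 3.57).

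Departing genes lay next to each other in a few places. The longest run had 4 genes, found among all members, at 53373493 to 53392473 between CHD9 and RBL2. ENSG00000261804 (5 and 27 counts), ENSG00000262714 (11 and 39), ENSG00000279741 (3 and 17) and ENSG00000280027 (8 and 48) are unnamed noncoding genes, all on the plus strand, with ratios from 1.77 to 2.53. Their coding neighbours were not raised alike, since CHD9 had 729 and 543 counts (−0.48) and RBL2 1159 and 1156 (−0.06). A second run of 4 held SLC9A5, a sodium-proton exchanger (23 and 51 counts), PLEKHG4 (47 and 98), ZDHHC1 (6 and 23) and HSD11B2, the enzyme that inactivates cortisol (14 and 27), with ratios from 0.89 to 1.88. Each of these 8 genes had few counts, from 20 to 145 in sum, and the interval of HSD11B2 held 0. With 5 counts added to each library HSD11B2 was no longer called. CPPED1, a phosphatase gene (83 and 10 counts, −3.11), and SHISA9 (20 and 0, at least 6.93-fold lower against a floor of 3 counts) formed a run below. C16orf54 also had no TRPV3-OE count against 32 and was at least 11.1-fold lower.

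The other lists are given by their counts, to be read beside 7.85% of all genes 2-fold higher and 6.76% 2-fold lower. Of 10 oxidative phosphorylation and coenzyme Q genes none was past 2-fold in either direction, with a median of −0.39 and a range of −0.86 to −0.09. NDUFB10, a complex I subunit on the outer short arm, had 1729 and 989 counts (−0.86), and NDUFAB1, farther in, 1976 and 1557 (−0.40). Of 12 mitosis and centromere genes none was past 2-fold either (median −0.43). The mitotic kinase gene PLK1 had 4314 and 2731 counts (−0.72, −0.79 to −0.65). Of 18 DNA replication and repair genes 2 were at least 2-fold lower, MPG and CHTF18, both on the outer short arm (median −0.30). Of 33 zinc finger genes 1 was 2-fold lower, ZNF771 with 116 and 40 counts (−1.59, −2.15 to −1.06), and the median was −0.38. Of 11 ribosomal and translation genes none was past 2-fold (median −0.38). Among redox genes NQO1, a quinone reductase driven by NRF2, had 6129 and 3610 counts (−0.82, −0.88 to −0.76) and stayed within 2-fold of its neighbours, as did the other members of that list but SULT1A2, which stood above (58 and 102 counts, a gene with near-identical copies), though not against its 10 nearest genes (departure 0.88). Of 14 growth and mTOR signalling genes 2 were at least 2-fold lower, MLST8 and TELO2 (median −0.42), and EEF2K, the kinase of elongation factor 2, lay above 0 with 979 and 1397 counts (0.46, 0.34 to 0.58). Of 15 stress response genes 1 was 2-fold lower, HERPUD1 of endoplasmic reticulum degradation, with 700 and 335 counts (−1.12, −1.31 to −0.93). Of 18 metabolic genes 1 was 2-fold lower and none higher (median −0.40). The 7 calcium and ion channel genes had a median of −0.36, with ATP2C2 alone 2-fold higher. The 7 solute carrier genes had a median of 0.21, with SLC9A5 alone 2-fold higher, and SLC12A4, a potassium-chloride cotransporter, had 1229 and 1728 counts (0.44, 0.33 to 0.54). In the smallest lists, too small for a share to be read, 2 of 4 metallothioneins were 2-fold higher, and 2 of 4 cadherins, 1 of 2 matrix metalloproteases, both homeobox and forkhead genes and 1 of 5 genes near the short-arm end were 2-fold lower.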

How the data were processed

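Gene counts of 1 parental and 1 TRPV3-OE library were used as deposited by the authors. They are raw counts from featureCounts 1.5.0-p3, reverse-stranded, on Ensembl 87 (GRCh38.p7), per the file headers. Per the submitters' processing notes STAR was also used, as was DESeq2, with no version given. Symbols came from a gene name table (621 of 626 members matched) and biotypes from GENCODE 29. Counts were scaled with TMM (edgeR 4.0.16, R 4.3.3; factors 0.981 and 1.02). Ratio intervals are exact conditional binomial and CPM intervals exact Poisson, both 95%; ratios took 0.5 in place of a count of 0. No test was possible with 1 library per group. The script was tested on simulated data. Named genes included the 12 above and 12 below their neighbours, of at least 100 counts, whose near interval bound lay farthest from the local median. They also included the 5 highest, lowest and most counted per arm, up to 4 per list of 18 gene lists, flanking genes and genes at the count limit. Others (SYT17, ZG16B, IL32, GPRC5B, CPPED1, C16orf54, IRF8, FOXL1, PIGQ, SNX29, TNFRSF12A, GDE1, CCP110, KNOP1, IQCK, NUP93, CHD9, RBL2, NLRC5, IL4R, ESRP2, POLR3K and genes of runs) were chosen after their values were seen. The members and lists were chosen with earlier results of these data known. 1 gene selected by the rule for named genes is not reported here.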

Additional observations from a re-analysis of the deposited data

How the results depend on the processing

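No paired analysis was possible because there is a single library for parental and for TRPV3-OE cells. No median or count of chromosome 16 changed direction under any alternative run. The difference between the arms was −0.23 under each scaling; it became −0.00 with the short arm from 15 Mb alone (short-arm median −0.22) and −0.37 with the short arm below 15 Mb alone (−0.59), both chosen after seeing the data. The long-arm median became −0.16 with total counts, −0.16 with the upper quartile, −0.17 as a mean over genes and −0.30 as a ratio of summed counts. Scaling moved the median of all genes across 0, from −0.01 to at most 0.04. With a minimum of 100 counts 15 genes (2.94%, beside 5.31% of all genes) were 2-fold higher and 37 (7.25%, beside 5.35%) were 2-fold lower. At that minimum 23 (4.51%, beside 4.91%) lay above and 17 (3.33%, beside 3.73%) below their neighbours. With a minimum of 500, 6 (1.54%, beside 2.77%) were 2-fold higher and 22 (5.66%, beside 3.65%) were 2-fold lower. Above and below their neighbours were then 9 (2.31%, beside 2.36%) and 8 (2.06%, beside 2.26%). Fewer genes qualify at these minimums. At 1.5-fold 43 genes were higher and 161 lower, and at 4-fold 13 were higher and 16 lower. A departure of 1.5-fold gave 72 above and 56 below, and one of 4-fold 20 and 14. Shares over all genes were not counted at these limits, so these numbers cannot be set against the series. With 10 nearest genes 41 of the 43 above (not BRICD5 or SULT1A2) and 26 of the 29 below (not MVP, SEZ6L2 or VPS9D1-AS1) were called again, and with 50 nearest genes 41 and 27 (not ENSG00000276564, YPEL3, HSD3B7 or PYCARD). With genes within 1 Mb 40 and 23 were called again. MMP2, IRX3, CPPED1 and SHISA9 had too few such genes for a local median. With 5 counts added to each library 39 and 25 were called again. Lost then were BRICD5, ZG16B, ENSG00000276564 and HSD11B2 above, and HSD3B7, PYCARD, ENSG00000260290 and CRISPLD2 below. Over named genes and alternatives, 363 ratios stayed within the main interval and 29 did not, and 266 departures moved by less than their counting error and 28 by more. The 266 include a setting with neighbours from the same arm alone, which left the departure of every named gene unchanged. No 2-fold or departure call changed sign, but CDIPT, near 0, went from −0.04 to 0.01 with total counts and the upper quartile, and the departure of HSBP1 from 0.04 to −0.01 with 50 nearest genes.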
